A study of Macaca mulatta with 6 samples.

Results

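In haploid embryonic stem cells (ESC) of the rhesus macaque, Macaca mulatta, 2 signals that form the second pairwise comparison of an HMST-Seq table were set against each other at every listed site of chromosomes 1 to 20. All such rows were taken, with no selection on their values. They number 1317975 sites, 96.4% of the 1366982 rows for haploid ESC and part of 2664374 rows over the haploid ESC and sperm tables. The study profiled 2 cell types, haploid ESC and sperm, with 3 digests of each (HpaII, BGT_MspI and MspI). Each digest was sequenced as 1 library of single-end 50 bp reads, so there are no replicates and the values below carry no replicate error. The haploid ESC are parthenogenetic by the series title: they come from an egg and hold no paternal genome. The labels name no clone, animal or culture for these cells and no treatment. Sperm enters only as a cell type for comparison.

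HMST-Seq reads the modification of cytosine at CCGG sites from tags that border the cut. HpaII cuts the site when its inner cytosine is unmodified, and MspI cuts it also when that cytosine is methylated (5mC) or hydroxymethylated (5hmC). A beta-glucosyltransferase (BGT) adds glucose to 5hmC, and the glucosylated site is then protected from MspI. A difference between HpaII and glucosylated MspI digests therefore reads 5mC, and a difference between glucosylated and plain MspI digests reads 5hmC. Hydroxymethylcytosine is made from 5mC by the TET enzymes, which pluripotent cells express. Imprinted regions, the subject of the series title, are methylated on the allele of 1 parent.

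Each table lists 4 signal columns in 2 pairs, but they hold 3 distinct signals. The second column of the first pair equals the first column of the second pair in 1366982 of 1366982 haploid ESC rows. This signal, common to both pairs, is called the shared signal here, and the other member of the second pair is called the other signal. No header or label ties any of the columns to HpaII, BGT_MspI or MspI. The contrast below, the shared minus the other signal divided by their sum, is thus given without naming a modification or its direction. A contrast of 0 means equal signals, and a positive contrast means that the shared signal was the higher.

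The shared and the other signal followed each other closely over the sites. Over the 1317975 sites their Spearman rho was 0.885, whereas the signal found in the first pair alone had a rho of 0.383 with the shared and of 0.388 with the other signal. These are descriptions over sites of the same libraries. The median site had a shared signal of 17.9 and an other signal of 18.1. From the 5th to the 95th percentile the shared signal ran from 3.71 to 60.7 and the other from 3.28 to 61.0, and their maxima were 4274 and 4263. Level, range and summed total were thus nearly the same in both, and the total of the shared signal was 0.994 times that of the other.

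Low signals did not form a continuum. The lowest shared signals lay between 0.764 and 0.9998, at 12403 sites, and no site had a value from there up to the next band, which began at 1.501 and held 15544 sites. The other signal had its lowest band between 0.818 and 0.997, at 13316 sites, and its next band began at 1.63. Over the first 8 bands the mean step was 0.722 in the shared and 0.800 in the other signal. Values thus came in discrete steps of similar size, as scaled whole numbers would, although the scaling was not given in the sources used here. No site had either signal at 0. Whether a site seen in 1 digest and not in another was left out or given a low value cannot be told from these values. The same trio of signals also recurred: 1401 sites had 1.002 in the signal of the first pair alone, 0.9998 in the shared and 0.997 in the other.

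At most sites the signals of the pair differed less than 2-fold, and the contrast was centred near 0. The contrast had a median of -0.00241 and a mean of -0.00435, with an SD over sites of 0.201. The middle 50% of sites lay between -0.128 and 0.121, and the middle 90% between -0.336 and 0.317. The sites split almost evenly about 0, with 49.4% above it, and 41.6% lay within 0.1 of it. The most extreme sites had contrasts of -0.913 and 0.921. With equal totals the median would be 0.000676, so its sign is set by the scaling of the 2 signals.

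Sites whose signals differed at least 2-fold, a contrast of 0.333 or beyond, were a minority in both directions. The shared signal was at least 2-fold higher at 57026 sites, 4.33% of all (4.29% to 4.36%, 95% Wilson interval). The other signal was at least 2-fold higher at 67454 sites, 5.12% (5.08% to 5.16%). The intervals cover sampling of sites only, and there is no replicate against which these shares could be tested. The other signal thus led at 1.18 sites for each site led by the shared signal, and 90.6% of sites were less than 2-fold apart. At a 4-fold difference the shares were 0.384% and 0.428%.

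The second pair was much narrower than the first pair of the same cells. At the same 1317975 sites the first-pair contrast had an SD of 0.432, and 15.1% of sites lay within 0.1 of 0. The signal of the first pair alone was at least 2-fold higher at 350888 sites (26.6%), and the shared signal at 314097 (23.8%). Calls at 2-fold were therefore several times more frequent in the first pair. The pairs have the shared signal in common, so each contrast is described by its own values and no correlation between the contrasts was computed. In sperm the second pair was narrow too, with an SD of 0.182 and a mean of 0.00097. There the shared signal was at least 2-fold higher at 41956 of 1254904 sites (3.34%) and the other at 43638 (3.48%), a ratio of 1.04.

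**Figure D1:**
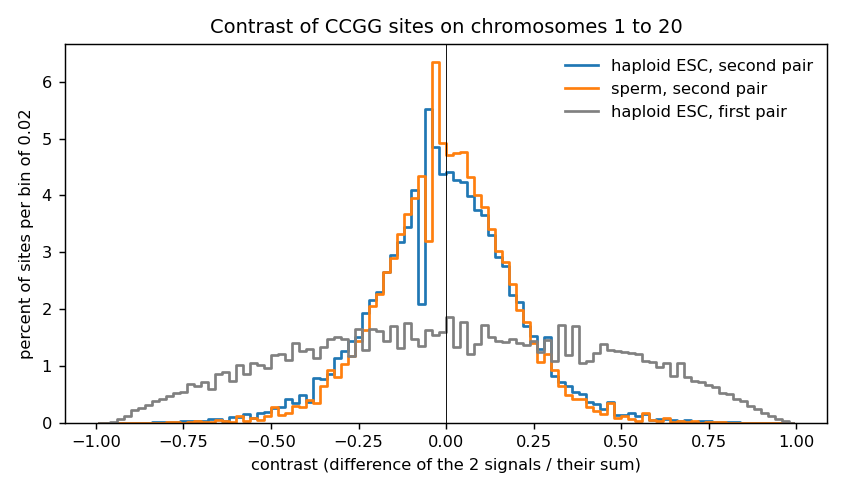
Percent of sites per bin of 0.02 (vertical axis) by contrast of the 2 signals (horizontal axis, no unit), for the second pair of haploid ESC, the second pair of sperm and the first pair of haploid ESC. The second pairs peak near 0 with SDs of 0.201 and 0.182, the first pair is spread with an SD of 0.432, and bins near 0 are uneven (2.09% from -0.08 to -0.06 beside 5.53% from -0.06 to -0.04 in haploid ESC).

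The spread of the contrast depended on how much signal a site had. Sites were ordered by the sum of both signals and divided into 10 equal groups (deciles). In the lowest decile, with a median sum of 7.79, the SD of the contrast was 0.315, and in the highest, with a median sum of 119.5, it was 0.130. It fell at each step between them. If each step between bands stood for 1 sequenced tag, counting alone would give an SD of 0.358 in the lowest decile and of 0.0778 in the highest. The measured spread was 0.880 times that value in the lowest decile, 1.10 times in the next and 1.68 times in the highest. Sites with much signal thus varied more than this count would give, while low sites varied about as much or less. The count allows a signal of 0, which no listed site had. What that does to the ratio in the lowest decile was not tested. Whether the steps are tags was not tested.

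Large differences were accordingly concentrated among weak sites. In the lowest decile the shared signal was at least 2-fold higher at 14.5% of sites and the other at 15.3%. In the highest decile these shares were 0.401% and 0.951%. The balance between the directions moved as well: the other signal led 1.05 times as often as the shared at the bottom and 2.37 times as often at the top. In sperm the same ratio went from 0.983 to 1.21. Among the 13734 sites with a summed signal above 200, 23 had the shared and 20 the other signal at least 2-fold higher, and the SD was 0.101. Above that sum the directions were thus about equally frequent.

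**Figure D2:**
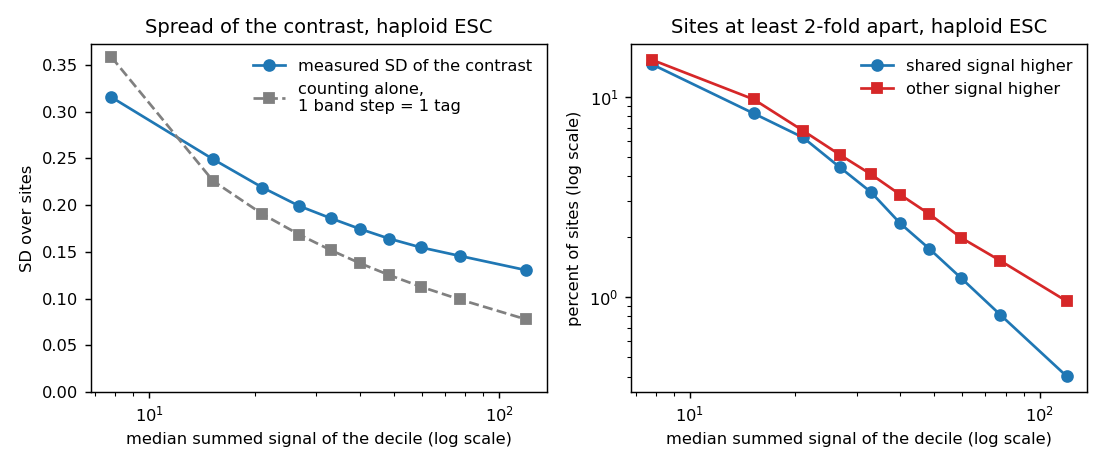
Left, SD of the contrast over sites (vertical axis) against the median summed signal of each decile of sites (log axis), as measured and as counting alone would give it if 1 band step were 1 tag; right, percent of sites at least 2-fold apart (log axis) in each direction against the same sum. The measured SD falls from 0.315 to 0.130, and the share with the other signal higher (15.3% to 0.951%) falls less than the share with the shared signal higher (14.5% to 0.401%).

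The sites with the most signal among those at least 2-fold apart were looked at singly, 5 in each direction. The largest sum with the shared signal higher was at position 17316421 of chromosome 2, with 780.7 against 267.6. At position 97435628 of chromosome 7 the shared signal was 724.3 and the other 87.3, an 8.30-fold difference and the widest of the 10. The first-pair signal there was 26.1, and the nearest listed site, 204 bp away, had 24.7 against 28.7. The large difference was therefore not shared by the adjacent site. The other 3 sites with the shared signal higher differed 2.84-fold (chromosome 1, position 32140354), 2.13-fold (chromosome 12, position 76276719) and 2.82-fold (chromosome 5, position 163401194). In sperm the contrast of these 5 sites was negative at each, from -0.273 to -0.179. Their direction in haploid ESC was thus the opposite of that in sperm at 5 of 5 sites, which were chosen for their haploid ESC values. None of the 5 reached a 2-fold difference in sperm, and over all sperm sites 50.2% had a contrast above 0.

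In the other direction the largest sum was at position 79852379 of chromosome 16, with a shared signal of 176.9 and an other signal of 383.5. A site 130 bp away had a contrast of 0.337, to the opposite side. The second site on chromosome 16, position 78716029, was just past the 2-fold mark, with 149.1 against 299.0. The difference was widest at position 1991146 of chromosome 15, with 59.5 against 227.9, or 3.83-fold. The remaining sites were at position 44632686 of chromosome 19 (2.18-fold) and position 82946099 of chromosome 11 (2.31-fold). The chromosome 19 site had a neighbour 4 bp away whose contrast was also negative, at -0.431, although its signals were only 8.88 and 22.3. Neighbouring sites thus agreed in direction in some of these cases and not in others. In sperm the contrasts of the 5 sites ran from -0.152 to 0.118, with both signs present.

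Sites close to another listed site leaned towards the other signal, and isolated ones slightly towards the shared. CCGG sites crowd together in CpG islands, which are often promoters and mostly unmethylated, and are sparse elsewhere, so the distance to the nearest listed site is a rough measure of the sequence around a site. The mean contrast was -0.0170 at 63893 sites with a neighbour within 50 bp, -0.0198 above 50 and up to 100 bp, and -0.0186 above 100 and up to 200 bp. It was -0.0047 at 200 to 500 bp and positive beyond, from 0.0024 at 500 to 1000 bp to 0.0040 above 5000 bp. All of these means are small beside the SD of 0.201. Sites within 100 bp of another lay 0.0223 lower on average than sites more than 2000 bp from one. The share of sites with the other signal at least 2-fold higher was 6.35% within 50 bp and 3.41% above 5000 bp, and the share with the shared signal higher was 4.49% and 2.92%. Summed signal moved with spacing, with medians of 34.6 and 57.9 in these classes.

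The dependence on spacing was larger at sites with much signal. In the highest decile by summed signal, where median sums per class lay between 118.1 and 122.1, the mean contrast was -0.0255 within 50 bp, -0.0267 at 50 to 100 bp and -0.0252 at 100 to 200 bp. It rose to -0.0020 at 200 to 500 bp, 0.0070 at 500 to 1000 bp and 0.0189 at 2000 to 5000 bp. Among these sites with a neighbour within 50 bp, 1.75% had the other signal at least 2-fold higher and 0.274% the shared, a ratio of 6.39. That ratio was 1.39 above 5000 bp. Clustered and isolated sites of similar summed signal thus differed in the balance between directions. In sperm the mean contrast of all sites also rose with spacing, from -0.0166 within 50 bp to 0.0282 above 5000 bp, further up than in haploid ESC.

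The rise with distance was not smooth. In steps of 20 bp the mean contrast was -0.0229 at 160 to 180 bp, -0.0021 at 200 to 220 bp and again at 220 to 240 bp, and -0.0157 at 260 to 280 bp. Smaller rises lay at 60 to 80 bp, to -0.0170, and at 120 to 140 bp, to -0.0119. Some exact distances recur between adjacent sites: 68 bp separated 4133 pairs, 5.29 times the median count of the distances around it, and 234 bp separated 4634 pairs, or 5.14 times. Distances of 202 bp (4.76 times), 135 bp (3.44 times) and 99 bp (2.84 times) also stood out. Within 1 bp of these distances the pairs had mean contrasts of 0.0004 (68 bp), -0.0033 (99 bp), -0.0012 (135 bp), 0.0067 (202 bp) and 0.0133 (234 bp), above the mean of their distance class. The rises at 60 to 80 bp, at 120 to 140 bp and at 200 to 240 bp thus hold spacings that recur. However, the step that holds 99 bp (80 to 100 bp) was no local rise, and a rise at 20 to 40 bp, to -0.0136, held none of the 5 distances. What sequence these pairs belong to was not tested.

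**Figure D3:**
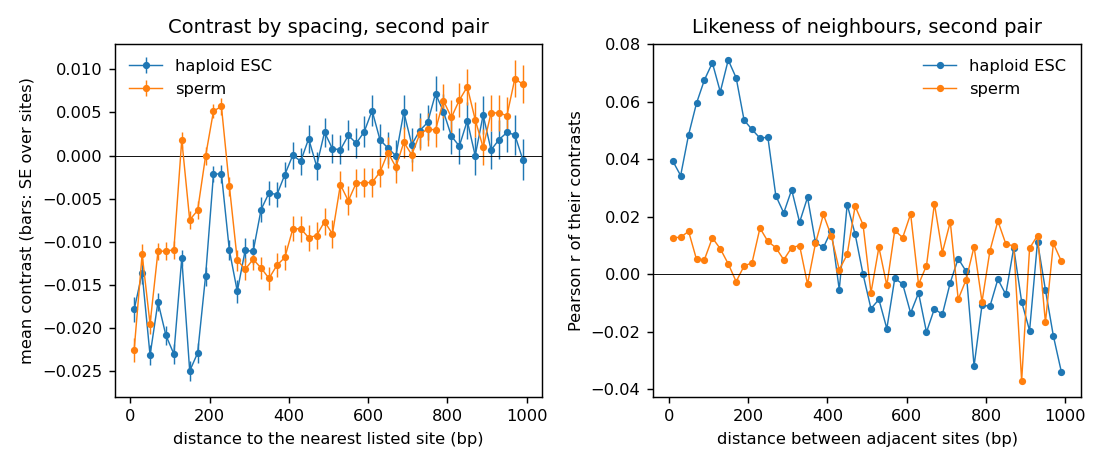
Left, mean contrast of the second pair (vertical axis, bars are the SE over sites) by distance to the nearest listed site in steps of 20 bp, for haploid ESC and sperm; right, Pearson r of the contrast between adjacent sites by their distance. The haploid ESC mean is below 0 up to about 400 bp with a local rise to -0.0021 between 200 and 240 bp, and r is highest between 100 and 200 bp in haploid ESC and near 0 throughout in sperm.

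Adjacent sites resembled each other weakly and over a short range. Between adjacent sites the Pearson r of the contrast was 0.0394 up to 20 bp, 0.0631 at 50 to 100 bp and 0.0666 at 100 to 200 bp (95673 pairs). It was 0.0262 at 200 to 500 bp and -0.0095 at 500 to 1000 bp. Where both sites had a summed signal at or above the median, r at 100 to 200 bp was 0.120 over 36066 pairs. In steps of 20 bp, r was 0.0504 at 200 to 220 bp, 0.0110 at 360 to 380 bp and -5.1e-05 at 480 to 500 bp. The likeness thus faded before 500 bp. It was stronger where signal was high, but at no distance did one site tell much about the next. The sites of a pair share libraries and sequence, so these values are descriptions. In sperm r was 0.0190 at most over the distance classes, and -0.0082 at 100 to 200 bp in sites with high signal.

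Chromosomes differed in mean contrast by little, and in an order that followed the density of sites. Chromosome 2 had the highest mean (0.0034, median 0.0053) and chromosome 5 the next (0.0030), and the lowest were chromosome 19 (-0.0189, median -0.0191) and chromosome 20 (-0.0127). The standard errors over sites of these 4 means lay between 0.0007 and 0.0009. These errors treat sites of the same libraries as independent and do not measure the error of a chromosome mean. The means of chromosomes 2 and 5 lay close together, and that of chromosome 19 lay below that of chromosome 20. The whole range was 0.0224, well under the SD over sites. On chromosome 19, 6.01% of sites had the other signal at least 2-fold higher and 4.04% the shared. On chromosome 2 these shares were 4.59% and 4.42%.

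Chromosome 19 had 793.7 listed sites per Mb, chromosome 20 had 617.1, chromosome 2 had 389.4 and chromosome 5 had 339.8. Over the 20 chromosomes, which share the libraries, mean contrast and sites per Mb had a Pearson r of -0.921 and a Spearman rho of -0.923. Without chromosomes 16 and 19, the farthest from the median density, r was -0.884. Among sites within 200 bp of another, r with density was -0.862, and among sites above 1000 bp from one it was -0.573. On each of the 20 chromosomes the sites within 200 bp had a lower mean than those above 1000 bp, with differences from -0.0338 to -0.0103. The difference between clustered and isolated sites thus recurs on every chromosome, and the relation with density was tighter in the clustered sites. Chromosome means of haploid ESC and sperm had an r of 0.960.

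Sites near chromosome ends had the lowest means. The ends were taken as the start of the numbering and the last listed site of each chromosome. The contrast averaged -0.0225 within 1 Mb of the nearer end and -0.0244 between 1 and 2 Mb. It was -0.0096 at 5 to 10 Mb and 0.0021 beyond 50 Mb. Sites also lay closer together at the ends, with a median distance to the nearest site of 253 bp in the last Mb and of 646 bp beyond 50 Mb. Among sites within 200 bp of another the mean still went from -0.0368 in the last Mb to -0.0064 beyond 50 Mb. Among sites more than 1000 bp from another it went from -0.0013 (SE over sites 0.0032) to 0.0041 (0.0006). The means thus rose from the ends inwards among clustered sites, and among isolated ones they differed by less. The SE over sites in the isolated end class was of a similar order to that difference. Such an SE treats sites of the same libraries as independent and does not measure the error of these means. In sperm the means were -0.0229 in the last Mb and 0.0093 beyond 50 Mb.

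**Figure D4:**
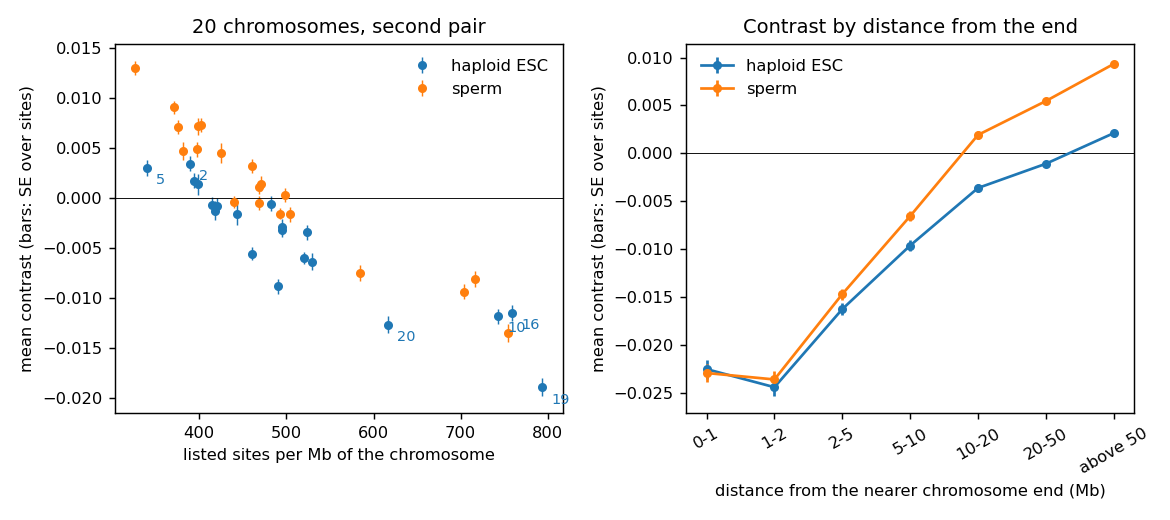
Left, mean contrast of the second pair (vertical axis, bars are the SE over sites) against listed sites per Mb for 20 chromosomes in haploid ESC and sperm, with some haploid ESC chromosomes numbered; right, mean contrast by distance from the nearer chromosome end in Mb. Haploid ESC chromosomes run from 0.0034 on chromosome 2 to -0.0189 on chromosome 19, and both cell types rise from about -0.023 in the last Mb to 0.0021 and 0.0093 beyond 50 Mb.

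In windows of 100 kb with at least 20 sites, few departed far from the overall mean. Of 23838 windows, 87 (0.365%) had a mean contrast at least 0.1 above the mean of all sites and 23 (0.0965%) at least 0.1 below it. These counts depended on the settings: 10 were higher and 0 lower among windows of at least 40 sites, 8 and 0 among windows of 200 kb, and 24 and 3 with sites at or above the median summed signal alone. Each of these settings also changes how many windows qualify, so the counts are not shares and do not show a change in rate. The SD of the window means was 0.0326, and the SE that the spread within windows would give was 0.0309. Most of the difference between windows is thus of the size that the scatter of their sites gives. Over all windows of 100 kb, those with fewer than 20 sites included, windows with many sites were lower: the mean was 0.0077 in windows of up to 20 sites, 0.0018 in those of more than 40 and up to 80 and -0.0400 in the 334 windows of more than 160. The density of sites therefore moved with the contrast at this scale as well. In windows of more than 20 and up to 40 sites the mean was 0.0075, against -0.0044 over all sites. The cutoff 0.1 above the mean of all sites was thus nearer to the mean of such windows than the cutoff 0.1 below it. What this adds to the 87 against 23 was not tested.

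The highest window was at 129800001 to 129900000 of chromosome 7, with a mean of 0.141 over 25 sites, of which 20 were above 0 and 5 were at least 2-fold higher in the shared signal. The next were at 91500001 to 91600000 of chromosome 2 (0.133), 88300001 to 88400000 of chromosome 7 (0.132), 113700001 to 113800000 of chromosome 3 (0.132) and 39400001 to 39500000 of chromosome 16 (0.131). The lowest was at 175900001 to 176000000 of chromosome 1, with -0.135 over 20 sites, of which 13 were below 0. It was followed by 81200001 to 81300000 (-0.124) and 87900001 to 88000000 (-0.121) of chromosome 4, 84800001 to 84900000 of chromosome 12 (-0.121) and 104600001 to 104700000 of chromosome 9 (-0.117). Each of the 10 held 20 to 36 sites, with SEs over sites between 0.0351 and 0.0474. They are the ends of a ranking of windows with few sites, and each held sites on both sides of 0. In sperm the 5 highest had means from 0.0318 to 0.0897. The 5 lowest had means above 0 there too, from 0.0036 to 0.119.

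The signal of the first pair alone had little bearing on the mean contrast of the second. Sites were grouped by the contrast of that signal with the mean of the pair, in 5 classes. From the class where it was lowest to the class where it was highest, the second-pair mean was -0.0060, -0.0006, -0.0050, -0.0078 and -0.0012. These means had no order. Shares at least 2-fold apart did rise, from 2.05% (shared higher) and 2.55% (other higher) to 8.86% and 9.49%. Median summed signal was 48.4 in the lowest class and 19.4 in the highest. The mean of the pair, and with it the summed signal, enters the grouping itself, so high classes favour low sums. The fall in summed signal and the rise of the shares are thus partly built into the classes.

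Site by site, the contrasts of haploid ESC and sperm had almost no relation. At 1215827 sites listed in both cell types the Spearman rho was -0.0045. It was -0.0332 where the smaller of the 2 summed signals was up to 20, 0.0822 where it was above 80 and up to 160, and 0.0758 above 160. Even at well-covered sites, then, the contrast in one cell type said little about the other. Of 49042 sites listed in both with the shared signal at least 2-fold higher in haploid ESC, 2770 had it at least 2-fold higher in sperm, which is 5.65% of the haploid ESC and 7.01% of the sperm sites. Another 3199 (6.52%) had the other signal higher in sperm. Of 58231 with the other signal higher in haploid ESC, 3320 (5.70%) had the same direction in sperm, or 8.10% of the sperm sites, and 4467 (7.67%) the opposite. Shared calls in opposite directions were thus more numerous than those in the same direction. The shares of haploid ESC calls are above the 3.25% (shared higher) and 3.37% (other higher) of all common sites called in sperm. The shares of sperm calls are above the 4.03% and 4.79% of common sites called in haploid ESC. Weak sites were called most often in both cell types.

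Averaged over long stretches, the cell types followed each other. The rho between their means was 0.131 over 23030 windows of 100 kb, 0.477 over 2686 windows of 1 Mb and 0.817 over 284 windows of 10 Mb. Only sites listed in both cell types entered these means. Means over 10 Mb ran from -0.0345 to 0.0346 in haploid ESC. The highest of these windows held only 66 sites and had a mean of -0.0160 in sperm, and the next was at 0.0173 in haploid ESC. Of the 284 windows, 149 were above 0 in both cell types and 82 below 0 in both. Another 48 were below 0 in haploid ESC and above 0 in sperm, and 5 were the reverse. The likeness of the cell types was thus seen in small average shifts over 10 Mb and hardly at single sites. Single sites had SDs of 0.201 (haploid ESC) and 0.182 (sperm), far above these shifts, and averaging over many sites lowers such scatter. The rise of rho with size therefore does not tell whether single sites share the shifts. Windows share the density of sites, which moved with the mean contrast in both cell types, and its part in the likeness was not tested.

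**Figure D5:**
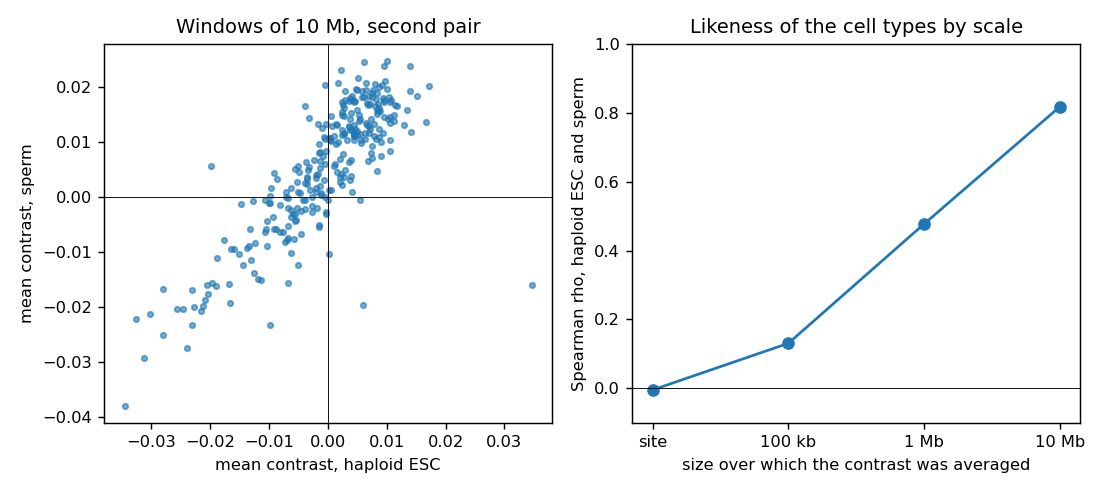
Left, mean second-pair contrast in sperm (vertical axis) against haploid ESC (horizontal axis) in 284 windows of 10 Mb, 1 point per window; right, Spearman rho between the cell types against the size over which the contrast was averaged. The points run from below 0 in both to above 0 in both, and rho rises from -0.0045 at single sites to 0.817 at 10 Mb. Only sites listed in both cell types were used.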

How the data were processed

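The authors deposited 1 table per cell type with 10 columns and no header. Its signal columns are values that are never negative, deposited after processing (aligner, counting, normalization) not given in the sources used here, so depth and precision per library are unknown. Build hg19 is named per the submitters' processing notes, but the tables number chromosomes 1 to 20, so positions are printed as deposited and no gene or sequence is given. Columns other than those of position and signal were not used.

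From the signals the contrast, 2-fold shares with Wilson intervals, means by spacing (distance to the nearest listed site), chromosome and windows of 100 kb with at least 20 sites were computed with Python 3.11.15, numpy 2.4.6, pandas 2.3.3 and scipy 1.17.1. Window and neighbour code was tested on simulated data. No test was run, since each digest had 1 library. Named were the 5 highest and 5 lowest windows, the 2 highest and 2 lowest chromosomes, and per direction the 5 sites of highest summed signal at or past 2-fold. Members and lists were chosen with earlier results of these data known.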

Additional observations from a re-analysis of the deposited data

How the results depend on the processing

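With 1 library per digest, alternatives show stability within these tables only. With signals scaled to equal totals the median contrast reversed to 0.000676, and the shares at least 2-fold higher were 4.47% (shared) and 5.01% (other). Restricting to sites at or above the median summed signal gave a median contrast of -0.000235, shares of 1.30% and 2.05%, a chromosome range of 0.0291, a clustered minus isolated difference of -0.0330, a neighbour r within 200 bp of 0.112 (0.0598 with all sites), a reversed rho with sperm of 0.0322, and 24 windows higher and 3 lower. Without sites within 50 bp of another, the median was -0.00206 and the other signal led at 5.06%. In sites also listed in sperm the shares were 4.03% and 4.79%, and the neighbour r was 0.0645. At 4-fold the shares were 0.384% and 0.428%. Window counts, higher and lower, were 220 and 72 at 50 kb, 8 and 0 at 200 kb, and 10 and 0 with at least 40 sites, and 14 were lower from summed signals. Window size, the minimum of sites and the restriction to sites of high signal also change how many windows qualify, so these counts are not shares. The cause of these changes was not tested. The other 25 values kept their direction and stayed within their intervals or, for counts, within 1.5 times. The planned rho between the pairs was not run, because they share a signal. No paired analysis was possible because each digest had 1 library.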

Other observations

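On the X chromosome of haploid ESC, 48998 sites had a mean second-pair contrast of 0.0022 and a median of 0.0043, and 25013 of them were above 0. The shared signal was at least 2-fold higher at 4.18% of X sites and the other at 4.51%. In sperm, 42476 X sites had a mean of 0.0069, with 5.72% and 5.41% at least 2-fold higher in the shared and in the other signal. The mitochondrial genome had 8 listed sites in haploid ESC, with shared signals from 3.83 to 182.2, other signals from 0.845 to 110.8 and contrasts from -0.342 to 0.638, and 2 of the 8 were at least 2-fold apart. It had 11 in sperm, with contrasts from -0.506 to 0.187 and 2 at least 2-fold apart.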
